A study of Mus musculus with 3 samples.

Results

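The genes described here are 10 members of the adenosine and ATP signalling system, taken by symbol from the 24346 genes of the deposited table of FPKM values (fragments scaled to gene length and library size): the adenosine receptor genes *Adora1*, *Adora2a*, *Adora2b* and *Adora3*, the ectonucleotidase genes *Entpd1* and *Nt5e*, the P2Y receptor genes *P2ry1* and *P2ry2*, and the P2X receptor genes *P2rx4* and *P2rx7*. All 10 have a row. The samples are 3 libraries, S38, S44 and S52, of endothelial cells (ECs) sorted from the lungs of wild type C57BL/6J mice, which the methods give as males of 6 to 8 weeks. ECs were labelled in the living animal with an injected VE-cadherin antibody, and freshly isolated cells were sorted as positive for CD31 and negative for CD45 and podoplanin, without culture and with no other treatment. The 3 libraries form 1 condition, so no difference between conditions was tested, and the labels do not say whether each came from a different mouse, so the spread between libraries may be technical.

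Extracellular ATP acts on ion channels of the P2X family and on G protein-coupled receptors of the P2Y family. It is cut by enzymes on the cell surface, first to AMP by CD39, the product of *Entpd1*, and then to adenosine by CD73, the product of *Nt5e*. Adenosine acts on its own G protein-coupled receptors until it is taken up by nucleoside transporters and phosphorylated or deaminated. In vessels, this system is known for control of tone, barrier function and platelet reactivity.

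The libraries were checked first. The median of 8 endothelial marker genes was 378 (S38), 393 (S44) and 379 (S52) FPKM, and all 8 were above 1 FPKM in every library. The libraries differed in markers of other cells, and S52 stood apart. The highest endothelial marker was *Cldn5*. The summed level of 6 platelet genes, led by *Ppbp*, was 1792 (S38), 1447 (S44) and 44.8 (S52) FPKM, and all 6 were lowest in S52 by more than 2-fold. The summed level of 6 leukocyte genes, led by *Lyz2*, was in that order 1115, 826 and 175 FPKM. *Lyz2*, which alveolar type 2 cells also express, made up most of it, and the other 5 leukocyte genes summed to 68.0, 46.6 and 9.30 FPKM, with *Ptprc*, the gene of CD45, at 4.30, 2.06 and 0.434 FPKM. The sum of 5 alveolar type 2 genes, led by *Sftpc*, was 3772, 3170 and 760 FPKM, and that of 4 airway genes, led by *Scgb1a1*, 2767, 2303 and 401 FPKM. The sums of 5 mural genes, led by *Acta2* (115, 60.2 and 111 FPKM), and of 4 alveolar type 1 genes, led by *Hopx* (348, 373 and 273 FPKM), differed less. So did those of 5 fibroblast genes, led by *Dcn* (75.7, 57.6 and 44.2 FPKM), and of 4 macrophage genes, led by *Cd68* (19.4, 30.4 and 18.1 FPKM). *Cd68* made up most of the macrophage sum, and the low genes *Adgre1* and *Marco* were lowest in S52. *Acta2* made up most of the mural sum, and 4 of the 5 mural genes were over 2-fold apart between libraries. *Pdgfrb*, *Rgs5* and *Cspg4* were highest in S52, at 10.1, 9.11 and 1.81 FPKM. *Acta2* and *Myh11* were highest in S38, at 90.3 and 11.5 FPKM. Of 4 mast cell genes, *Kit*, at 81.0 to 110 FPKM, was the single one detected, and *Ms4a2* was listed at 0 in every library. The 4 lymphatic genes summed to 565, 623 and 414 FPKM, led by *Lyve1*, while *Prox1*, the factor that defines lymphatic ECs, reached no more than 0.598 FPKM. Depth, estimated from the steps between low values, came to 37600000 (S38), 38700000 (S44) and 34600000 (S52) fragments, and at these depths 1 FPKM of a transcript of 2000 bp stands for 69.6, 71.2 and 62.3 fragments.

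*Entpd1*, *P2rx4* and *P2rx7* were the 3 members with a mean of 10 FPKM or more, a level reached by 25.7% of all genes. *P2ry2*, *Adora2a*, *P2ry1* and *Nt5e* had means between 1.91 and 6.53 FPKM. *Adora2b*, *Adora1* and *Adora3* were under 1 FPKM in every library. Genes with a mean of 1 FPKM or more counted as detected. This held for 7 of the 10 members, beside 48.3% of all 24346 genes. The median of the members' means was 3.21 FPKM, and that of all genes was 0.784 FPKM, with 7183 of these listed at 0 in every library. The 11770 detected genes had a median of 11.2 FPKM, and *P2ry2*, *Adora2a*, *P2ry1* and *Nt5e* were below it. The cells were measured in bulk, so fewer cells of a type and less RNA per cell cannot be told apart for any of these genes.

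**Figure D1:**
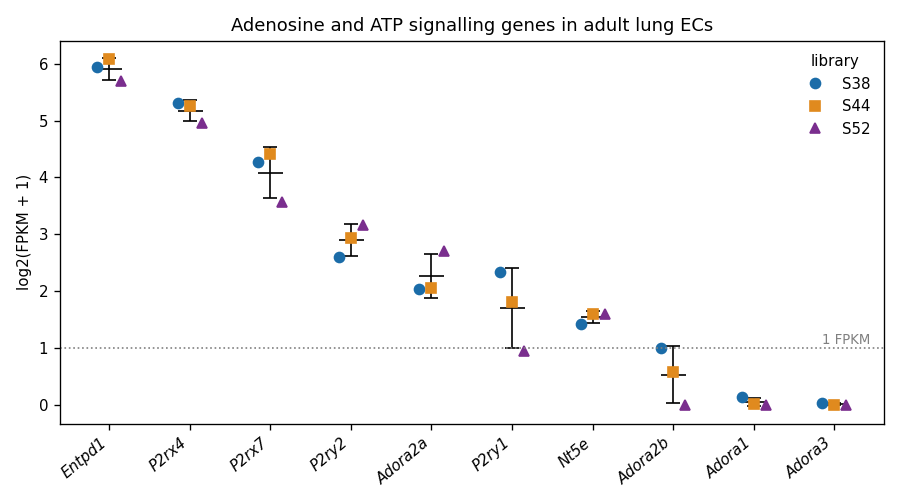
Level of each of the 10 genes as log2(FPKM + 1) in the libraries S38 (circles), S44 (squares) and S52 (triangles), ordered by mean FPKM, with the mean and SD over the 3 libraries as bars. *Entpd1* stood highest, at 50.6 to 66.6 FPKM, *P2ry1* spread most among the genes with a mean over 1 FPKM, and *Adora1* and *Adora3* lay near 0.

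The genes of the enzymes that make adenosine from ATP were unequal in RNA level, and protein was not measured. *Entpd1*, which removes phosphates from ATP and ADP, was at 60.4 (S38), 66.6 (S44) and 50.6 (S52) FPKM, or 59.2 ± 8.05 FPKM (SD, n = 3 libraries). The highest and lowest libraries were 1.32-fold apart, and the mean ranked 1463 of the 24346 genes. *Nt5e*, which acts on the AMP that is left, had 1.66 (S38), 2.03 (S44) and 2.03 (S52) FPKM, or 1.91 ± 0.213 FPKM (SD, n = 3), with a rank of 10643. *Entpd1* was 36.4-fold above *Nt5e* in S38, 32.8-fold in S44 and 25.0-fold in S52, and the values of the pair did not overlap. On the log2(FPKM + 1) scale, which understates changes of low genes, the difference was 4.37 ± 0.239 (SD, n = 3), with *Entpd1* higher in 3 of 3 libraries (exact two-sided sign-flip permutation test, p = 0.25). With 3 libraries 0.25 is the smallest p this test can give, so no difference within libraries could pass 0.05. By estimated fragments, the value of *Nt5e* rested on 240 to 302 fragments and that of *Entpd1* on 7041 to 10461.

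*Entpd1* occupies chromosome 19, 40612366 to 40741602 (GRCm38, the build of mm10; plus strand), with 10 exons in its longest basic GENCODE M21 transcript, and *Nt5e* occupies chromosome 9, 88327197 to 88372092 (plus strand), with 9 exons. *P2rx7* and *P2rx4* are neighbours on the plus strand of chromosome 5. *P2rx7* runs from 122643911 to 122691432 with 13 exons and *P2rx4* from 122707544 to 122729738 with 12 exons, and 16111 bases separate them. The 250 bases before a RefSeq start site (GRCm38.p6, plus strand, 5′ to 3′) are shown for these 3 highest members, at the first listed start site where RefSeq gives more than 1. Capitals mark matches on either strand to the GC box GGGCGG or to CCAAT, the motifs found among 5 searched.
Entpd1 chr19:40612116-40612365: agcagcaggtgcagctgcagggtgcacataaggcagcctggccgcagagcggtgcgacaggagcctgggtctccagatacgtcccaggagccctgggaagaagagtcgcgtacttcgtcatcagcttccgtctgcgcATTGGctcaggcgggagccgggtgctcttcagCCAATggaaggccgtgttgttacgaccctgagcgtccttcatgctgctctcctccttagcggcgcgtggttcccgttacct
P2rx4 chr5:122707294-122707543: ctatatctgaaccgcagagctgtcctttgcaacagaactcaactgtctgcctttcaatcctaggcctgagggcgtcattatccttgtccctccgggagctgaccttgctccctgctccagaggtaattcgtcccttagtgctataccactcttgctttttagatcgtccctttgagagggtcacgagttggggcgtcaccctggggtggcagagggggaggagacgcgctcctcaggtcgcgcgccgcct
P2rx7 chr5:122643677-122643926: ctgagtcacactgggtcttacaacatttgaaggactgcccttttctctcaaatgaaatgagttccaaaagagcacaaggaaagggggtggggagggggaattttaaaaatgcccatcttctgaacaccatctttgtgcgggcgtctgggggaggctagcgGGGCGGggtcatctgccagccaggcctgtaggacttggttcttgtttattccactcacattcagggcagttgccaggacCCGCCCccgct
The *Entpd1* window holds 2 CCAAT matches in opposite orientation, the *P2rx7* window holds 2 GC boxes, and the *P2rx4* window holds none of the motifs. Among 32851 RefSeq windows of the same length, 32.7% hold a GC box, 33.8% a CCAAT, 12.4% a TATAAA, 6.91% the ETS motif CCGGAAG and 1.55% the cAMP response element TGACGTCA, counted on both strands. None of the last 3 was found in the 13 windows of the 9 members with an entry. *Adora2a* has no entry. The window of *Adora3*, the lowest member, has no CpG, against a median of 6 CpGs over all windows. Those of *Adora2b*, *P2ry1*, *Nt5e* and *P2rx4* hold 22, 20, 21 and 13 CpGs. At the first and second start sites, *Adora1* has 19 and 18, *P2ry2* 21 and 26, *Entpd1* 18 and 8, and *P2rx7* 6 and 4. A match is a run of letters and not evidence that a factor binds, and FPKM values per gene do not show which start site was used.

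The genes of the P2X receptors, cation channels opened by ATP, had the highest RNA levels of the receptor genes among the members. *P2rx4*, a channel known in ECs for calcium entry under flow, was at 38.8 (S38), 37.1 (S44) and 30.1 (S52) FPKM, or 35.3 ± 4.60 FPKM (SD, n = 3). *P2rx7*, which needs more ATP to open and is best known from macrophages, had 18.4, 20.1 and 10.9 FPKM in the same order, or 16.5 ± 4.93 FPKM (SD, n = 3). The values of the channels did not overlap, and *P2rx4* was 2.11-fold, 1.84-fold and 2.77-fold above its neighbour in S38, S44 and S52. The difference of log2(FPKM + 1) was 1.09 ± 0.275 (SD, n = 3 libraries, higher in 3 of 3, exact sign-flip permutation p = 0.25). S52 was the lowest library for each of them, by 1.29-fold from the highest for *P2rx4* and by 1.85-fold for *P2rx7*. Leukocyte genes were also lowest in S52, as given above. *P2rx7* is also known in alveolar type 1 cells, and the 4 markers of these were split: *Hopx*, at 294, 332 and 201 FPKM in the order S38, S44 and S52, and *Aqp5*, 3.41-fold lower in S52 (3.08 FPKM) than in S38, were lowest in S52, whereas the other two were highest there, with 43.3, 33.4 and 66.0 FPKM of *Ager* and 0.851, 0.149 and 3.07 FPKM of *Rtkn2*. Of the 4 macrophage markers 2 were detected. *Cd68* was at 17.0 (S38), 27.4 (S44) and 16.7 (S52) FPKM and *Csf1r*, in that order, at 1.25, 1.85 and 1.30 FPKM. *Adgre1* was at 0.741, 0.572 and 0.124 FPKM and *Marco* at 0.461, 0.561 and 0 FPKM. All but *Csf1r* were lowest in S52. The sort took cells negative for CD45, a surface protein of leukocytes and macrophages, and for podoplanin, which alveolar type 1 cells carry. *Pdpn*, the gene of podoplanin, was at 2.39 (S38), 1.84 (S44) and 3.09 (S52) FPKM. The part of leukocytes, macrophages and alveolar type 1 cells in the level of *P2rx7* was not tested. The exons of *P2rx7* share 119 bases with *Mir8115* on the same strand.

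Both P2Y receptors among the members couple to Gq and release calcium from stores. *P2ry2*, activated by ATP and UTP, was at 5.06 (S38), 6.65 (S44) and 7.89 (S52) FPKM, or 6.53 ± 1.42 FPKM (SD, n = 3). *P2ry1*, the ADP receptor, had 4.03, 2.52 and 0.924 FPKM in the same order, or 2.49 ± 1.55 FPKM (SD, n = 3). *P2ry2* was highest and *P2ry1* lowest in S52, and the ranges of the pair did not overlap. *P2ry1* was below *P2ry2* in 3 of 3 libraries, by -1.20 ± 0.973 on the log2(FPKM + 1) scale (SD, n = 3, exact sign-flip permutation p = 0.25). The size of this difference depended on S52, since it came to -0.27 (S38), -1.12 (S44) and -2.21 (S52), and the mean without S52 was -0.69. *P2ry1* shares 992 of its 4291 exonic bases with *Gm37035* on the opposite strand, and reads without strand information cannot be assigned to one of them.

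*P2ry1* was the single detected member whose libraries differed by more than 2-fold, 1 of 7 members beside 20.1% of all 11770 detected genes. Its highest library, S38, was 4.36-fold above S52 and 1.60-fold above S44, and without S52 no detected member passed 2-fold. *P2ry1* is known from platelets as well as from ECs. The receptors *P2ry12*, the other ADP receptor of platelets, and *P2rx1*, their ATP-gated channel, moved in the same direction and further. *P2ry12* was at 22.1 (S38), 11.7 (S44) and 0.903 (S52) FPKM. *P2rx1* was at 21.2, 17.1 and 2.01 FPKM. The difference of log2(FPKM + 1) of S52 from S38 and from S44 was -1.39 and -0.87 for *P2ry1*, -3.60 and -2.74 for *P2ry12*, -2.88 and -2.59 for *P2rx1*, and a median of -3.99 and -3.93 for the 6 platelet markers. Other lists were lower in S52 as well, with medians of -2.21 and -1.42 for leukocyte, -2.34 and -1.46 for alveolar type 2 and -2.04 and -1.95 for airway markers. The endothelial markers had medians of 0.092 and -0.056, but single ones moved either way. *Kdr* was at -0.68 and -0.60, *Cldn5* at -0.53 and -0.75, *Emcn* at 0.77 and 0.56, and *Erg* at 0.51 and 0.96. The part of RNA from platelets or any of these other cells in the level of *P2ry1* was not tested.

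**Figure D2:**
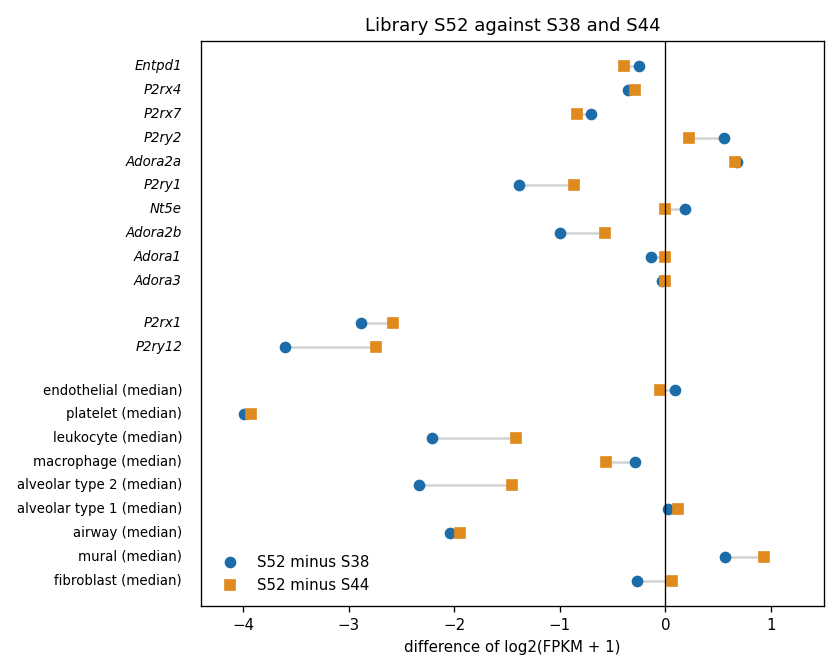
Difference of log2(FPKM + 1) of library S52 from S38 (circles) and from S44 (squares) for the 10 members, for *P2rx1* and *P2ry12*, and as the median of each of 9 lists of cell type markers (lymphatic and mast cell lists not drawn). *P2ry1* lay at -1.39 and -0.87, between the endothelial median near 0 and the platelet median near -3.99, as did the leukocyte, alveolar type 2 and airway medians, whereas *Adora2a* and *P2ry2* lay above 0. The scale understates changes of low genes such as *P2ry1*. A median hides the spread within its list: the endothelial markers *Cldn5* and *Erg*, not drawn singly, differed from S44 by -0.75 and 0.96.

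Of the detected members, *Entpd1*, *P2rx4*, *P2rx7* and *P2ry1* (4 of 7) were lowest in S52, as were 46.3% of all detected genes, and *Adora2a* and *P2ry2* (2 of 7) were highest there, as were 33.9%. The shares are near those of all genes. Leaving out S52 moved the means to 63.5 FPKM for *Entpd1*, 37.9 FPKM for *P2rx4*, 19.3 FPKM for *P2rx7*, 5.85 FPKM for *P2ry2*, 3.12 FPKM for *Adora2a*, 3.27 FPKM for *P2ry1*, 1.85 FPKM for *Nt5e* and 0.742 FPKM for *Adora2b*. On the log2(FPKM + 1) scale, the difference of *Entpd1* from *Nt5e* was then 4.50, that of *P2rx4* from *P2rx7* 0.94 and that of *Adora2a* from *Adora2b*, described next, 1.26.

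Among the adenosine receptors, *Adora2a* was the one detected. Its receptor couples to Gs and raises cAMP, and the gene was at 3.10 (S38), 3.15 (S44) and 5.54 (S52) FPKM, or 3.93 ± 1.39 FPKM (SD, n = 3). S38 and S44 lay close together and S52 was 1.79-fold above the lower of them. *Adora2b*, whose receptor also couples to Gs but has a lower affinity for adenosine, had 0.998 (S38) and 0.486 (S44) FPKM and was listed at 0 in S52. These values correspond to an estimated 63.6 and 31.7 fragments, and at the depth of S52 a count of 0 allows up to 0.0527 FPKM (3 fragments, counting error only). Of 12351 genes at 0.486 FPKM or above in S38 and in S44, 258 (2.09%) were listed at 0 in S52. These genes had no upper limit of level, so the share is not that of genes as low as *Adora2b*. A listed 0 can also be a failed estimate. *Adora2a* was above *Adora2b* in 3 of 3 libraries, with no overlap, by 1.74 ± 0.866 on the log2(FPKM + 1) scale (SD, n = 3, exact sign-flip permutation p = 0.25). A pseudocount of 0.1 FPKM in place of 1 moved this difference to 3.28.

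*Adora1* and *Adora3* encode receptors that couple to Gi and lower cAMP. *Adora1* was at 0.0978 FPKM in S38, an estimated 17.7 fragments, at 0.00578 FPKM in S44, an estimated 1.08 fragments, and listed at 0 in S52, where up to 0.0182 FPKM could go unseen. *Adora3* was at 0.0238 FPKM, an estimated 1.98 fragments, in S38, and below the level of 1 fragment in S44 and S52. *Adora1* was above the limit of 3 fragments in S38 alone and *Adora3* in no library, and the exact sign-flip permutation p of the pair was 0.5 over 3 libraries, where 0.25 is the smallest it can be. *Adora3* shares 779 of its 3729 exonic bases with *Tmigd3* on the same strand, which was listed at 0 in S38 and was at 0.204 FPKM in S44 and 0.233 FPKM in S52, so fragments of the shared exons may have been divided between these genes. *Adora1* shares 1162 of 5785 exonic bases with *Mybph* on the opposite strand. *Adora2a* (chromosome 10, 75316877 to 75334784, plus strand) and *Adora2b* (chromosome 11, 62248984 to 62266453, plus strand) share no exonic base with another gene of GENCODE M21.

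Taking each family as a whole, *Adora2a* made up 73.4% of the summed adenosine receptor FPKM in S38, 86.5% in S44 and 100.0% in S52, or 86.6% ± 13.3 (SD, n = 3) and 80.0% without S52, and *Adora2b* made up 23.7%, 13.4% and 0%. The sum was 4.22, 3.64 and 5.54 FPKM. The 4 nucleotide receptors among the members summed to 66.3, 66.4 and 49.8 FPKM, with *P2rx4* at 58.3% ± 2.32, *P2rx7* at 26.6% ± 4.37, *P2ry2* at 11.2% ± 4.23 and *P2ry1* at 3.91% ± 2.11 (SD, n = 3 for each). The 4 shares had this order in every library, and *P2ry2* took its highest share and *P2ry1* its lowest in S52.

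**Figure D3:**
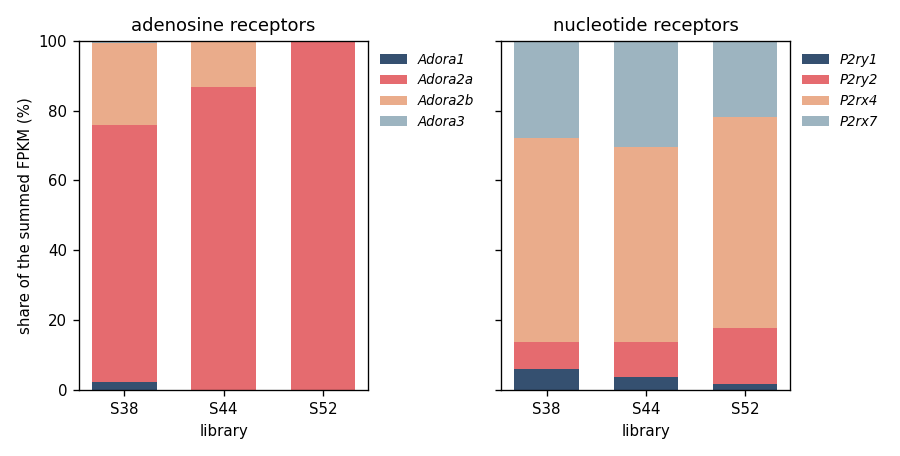
Share of each gene in the summed FPKM of the 4 adenosine receptors (left) and of the 4 nucleotide receptors among the members (right), in percent, for each library. *Adora2a* took 73.4% to 100.0% of the adenosine receptor FPKM, and *P2rx4* took 55.9% to 60.5% of the nucleotide receptor FPKM.

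In order of level the members were *Entpd1*, *P2rx4*, *P2rx7*, *P2ry2*, *Adora2a*, *P2ry1*, *Nt5e*, *Adora2b*, *Adora1* and *Adora3*. Of the 9 pairs of neighbours, 5 kept their order in all 3 libraries, and in 4 the ranges over libraries did not overlap: *Entpd1* over *P2rx4*, *P2rx4* over *P2rx7*, *P2rx7* over *P2ry2*, and *Nt5e* over *Adora2b*. *P2ry2* was above *Adora2a* within every library, but their ranges overlapped. *P2ry1* could not be placed among its neighbours. It was above *Adora2a* and *Nt5e* in S38, between them in S44 and below them in S52. After Benjamini-Hochberg adjustment over the 9 pairs, the lowest exact permutation p was 0.45, and over the 5 pairs of like role it was 0.312. The 9 pairs were formed by sorting the members on means of these same libraries, so their p-values do not test the order.

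The protein-coding genes nearest in level to the highest adenosine receptor, the highest nucleotide receptor and the higher ectonucleotidase, by the largest difference of log2(FPKM + 1) in any of the 3 libraries, were *Ttbk2* (0.056) and *Rest* (0.080) for *Adora2a*, *Cbr1* (0.020) and *Immp1l* (0.029) for *P2rx4*, and *Prickle2* (0.047) and *Maf1* (0.066) for *Entpd1*. The search covered 19861 genes, and a likeness over 3 libraries of 1 condition is a likeness of level.

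The other genes of the pathway were looked up in 10 lists of 63 genes in all. Of these, 38 (60.3%) were detected, beside 48.3% of all genes, and 7 were listed at 0 in every library. The 11 detected genes whose libraries differed by more than 2-fold are named above or below, and 9 of them were lowest in S52, as were 1534 of the 2363 detected genes with such a difference in the whole table.

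Of the 11 P2Y and P2X receptor genes outside the members, 4 were detected: *P2rx1* and *P2ry12*, given above, *P2ry10* at 5.77 (S38), 3.11 (S44) and 1.55 (S52) FPKM, and *P2ry14*, the receptor for UDP-glucose, at 1.17 ± 0.278 FPKM (SD, n = 3). *P2ry10*, a receptor gene known from lymphocytes, was over 2-fold apart between libraries and lowest in S52. The leukocyte, platelet, alveolar type 2 and airway markers were also lowest in S52, as were 46.3% of all detected genes. The part of any of these cells in the level of *P2ry10* was not tested. *P2rx6* and *P2rx5*, the next channels, had means of 0.547 and 0.433 FPKM, and *P2rx2* was listed at 0 throughout. *P2rx4* and *P2rx7* were therefore the only P2X genes above 3 FPKM in S52.

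Of 7 further ectonucleotidases, *Alpl*, tissue-nonspecific alkaline phosphatase, was the single one detected, at 1.72 (S38), 1.17 (S44) and 0.720 (S52) FPKM, or 1.20 ± 0.502 FPKM (SD, n = 3). *Entpd2*, which cuts ATP to ADP, was at 1.32 and 0.706 FPKM in S38 and S44 and listed at 0 in S52, and *Enpp3* had a mean of 0.416 FPKM. *Entpd1* was thus the one surface enzyme of these 9 genes above 3 FPKM. Of 4 NTPDases that work inside the cell, *Entpd5* was at 7.83 ± 1.79 FPKM, *Entpd6* at 1.55 ± 0.166 FPKM and *Entpd7* at 0.431 ± 0.0153 FPKM (SD, n = 3 for each), and *Entpd4* was listed at 0. As for *Adora2b*, a listed 0 can also be a failed estimate, and whether *Entpd4* is absent was not tested.

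*Slc29a1* and the 4 genes listed for adenosine clearance were above every adenosine receptor gene in each library. *Slc29a1*, the equilibrative transporter ENT1, was at 97.7 (S38), 101 (S44) and 85.9 (S52) FPKM, above *Entpd1* in each library. Of the 6 other nucleoside transporters, *Slc29a3*, found on lysosomes, was the one detected, at 4.27, 3.41 and 1.61 FPKM, and *Slc28a2*, a concentrative transporter, had a mean of 0.687 FPKM. All 4 genes listed for adenosine clearance were detected in every library. *Adk*, the kinase that returns adenosine to AMP, was at 81.2 ± 13.1 FPKM, *Dpp4*, the surface protein CD26, at 63.5 ± 1.49 FPKM and *Pnp*, purine nucleoside phosphorylase, at 55.8 ± 13.9 FPKM (SD, n = 3 for each). *Ada*, adenosine deaminase, the fourth of the list, was at 17.9 ± 4.14 FPKM. *Dpp4*, the gene of a peptidase, is in this list by choice, and whether it takes part in adenosine clearance in these cells was not tested.

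Of 5 genes of ATP release, *Lrrc8a*, a subunit of volume-regulated anion channels, was at 23.8 ± 3.83 FPKM (SD, n = 3). *Panx1*, the pannexin channel, was at 8.27 (S38) and 5.63 (S44) FPKM, and S52, the lowest, was 3.94-fold below S38. *Slc17a9*, the vesicular nucleotide transporter, had a mean of 0.131 FPKM, and *Panx2* and *Panx3* were listed at 0.

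Downstream of the receptors, the G protein α subunits were all detected. *Gnas*, the subunit of Gs, was at 577 ± 47.0 FPKM, *Gnai2*, a subunit of Gi, at 543 ± 66.3 FPKM and *Gna13* at 69.4 ± 16.0 FPKM (SD, n = 3 for each). Of 10 adenylyl cyclases, which make cAMP, 8 were detected and 1 stood out. *Adcy4* was at 200.4 (S38), 213 (S44) and 178 (S52) FPKM, followed by *Adcy6* at 12.6 ± 1.77 FPKM (SD, n = 3). *Adcy9*, the next, was at 8.10, 5.28 and 2.35 FPKM. *Adcy5*, at 2.11 FPKM in S38 and 0.342 FPKM in S52, and *Adcy7*, at 2.25 FPKM in S38, were also over 2-fold lower in S52 than in S38, whereas *Adcy2* was highest in S52, at 4.15 FPKM against 2.04 FPKM in S38 and 0.870 FPKM in S44. Of the phospholipase C β and IP3 receptor genes, which carry the Gq signal to calcium stores, all 7 were detected, led by *Plcb3* at 42.1 ± 3.91 FPKM, *Plcb4* at 29.8 ± 4.76 FPKM and *Itpr2* at 14.8 ± 1.88 FPKM (SD, n = 3 for each). *Plcb1* was at 5.01, 5.67 and 18.4 FPKM and thus, like *Adcy2*, over 2-fold apart with S52 highest.

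**Figure D4:**
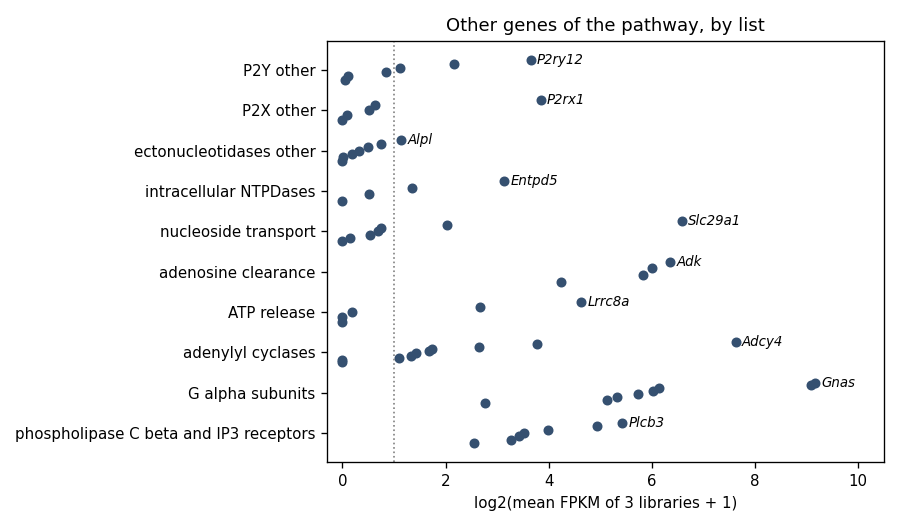
Level of 63 further genes of the pathway as log2(mean FPKM of 3 libraries + 1), 1 point per gene, in 10 lists with the highest gene of each list named. The dotted line marks a mean of 1 FPKM, which 38 of the genes reached, and *Gnas*, *Adcy4* and *Slc29a1* lay far to its right.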

How the data were processed

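Adult lung ECs were profiled in 3 libraries by poly-A selected, non-stranded RNA-seq with paired reads of 51 bp. The authors deposited 1 table of FPKM values per gene symbol on mm10. The submitters' processing notes name bcl2fastq 2.17, FastQC 0.11.5, Trimmomatic 0.36, TopHat2 2.1.0 and Cufflinks 2.2.1, and the gene annotation is not given in the sources used here. The study's methods describe counts from STAR and HTSeq for its own tests, which were not used here. No batch correction is stated for the FPKM values. Groups came from the sample titles. All columns of per-sample values were used.

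Values were read as deposited with Python 3.11.15 and pandas 2.3.3. FPKM is not a count, so no count model was fitted. Differences between genes were taken within a library on log2(FPKM + 1), with a pseudocount of 1, and tested by an exact two-sided sign-flip permutation over libraries, adjusted by Benjamini-Hochberg. The threshold for detection was a mean of 1 FPKM. Depth was estimated as the number of fragments that made low values of 6063 single-transcript genes whole: 77.1% to 80.7% of 135 to 280 low values per library lay within 0.15 of a whole number. This method was settled on with the values in view, and its number was searched to fit them. On simulated ideal counts for the same 6063 genes in each of the 3 libraries, known depths were recovered with an error of at most 0.313%, but there 100% of low values were whole, so that error does not carry over to the deposited values, and fragment numbers are approximate. Fragments per member assume the longest basic GENCODE M21 transcript. Of the symbols, 95.7% were found in GENCODE M21.

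The members and lists were chosen with earlier results of these data known. All members were named, as were the 3 highest genes of each pathway list, every detected list gene over 2-fold apart between libraries, *P2rx1* and *P2ry12*, the highest gene of each marker list, and the 2 genes nearest in level to the highest adenosine receptor, the highest nucleotide receptor and the higher ectonucleotidase. Other genes (*Ada*, the alveolar, macrophage and mural markers, *Entpd4*, *Entpd7*, *Panx2*, *Panx3*, *P2rx2*, *Prox1*, *Pdpn*, *Ptprc*, *Ms4a2* and genes that overlap members) were named after their values were seen.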

Additional observations from a re-analysis of the deposited data

How the results depend on the processing

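Scaling, thresholds, pseudocounts and the set of libraries were varied one at a time. All FPKM values summed to 1.15e+06 (S38), 1.60e+06 (S44) and 1.42e+06 (S52), so rescaling each library to a sum of 1000000 lowers every gene. The 10 member means fell to between 0.719 and 0.867 of the deposited value, and the median over the members moved from 3.21 to 2.38 FPKM. With the same rescaling 2 detected members, *P2ry1* and *P2rx7* (2.08-fold), passed 2-fold between libraries, in place of 1. On the deposited scale without the filter on low values 4 members did, among them the undetected *Adora1*, *Adora2b* and *Adora3*. Leaving out 1 library gave 0 to 1 detected members over 2-fold, with 0 without S52. A threshold of 10 FPKM left 3 members detected in place of 7. Rescaling to the endothelial markers or to the median of detected genes moved no member mean by more than its SD. The 5 differences between genes of like role kept their sign under every alternative tried. For neighbours in the order of level, alternatives were added after seeing the data, and the differences that changed sign were *Adora2a* minus *P2ry1*, 0.57 with all libraries and -0.029 to 1.002 without 1 library (negative without S52), and *P2ry1* minus *Nt5e*, 0.16 with all libraries and -0.22 to 0.57 without 1 library (negative without S38). Without 1 library, the difference of *P2ry1* from *P2ry2* ranged from -1.66 to -0.69, that of *Adora2a* from *Adora2b* from 1.26 to 2.09, and that of *Adora1* from *Adora3* from 0.0042, without S38, to 0.055. No paired analysis was possible because the labels give 1 group, so no library could be paired across groups. Differences between genes were taken within each library. With 3 libraries no test within libraries could go below p = 0.25 (exact permutation test), and values under 0.05 FPKM rest on a few fragments.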

Other observations

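*Pnp2*, a paralogue next to *Pnp* that was looked up after the values of *Pnp* had been seen, was at 2.94 (S38), 1.93 (S44) and 9.77 (S52) FPKM, a 5.06-fold range with S52 highest. *Pnp* was also highest in S52, at 70.0 FPKM against 42.4 FPKM in S38 and 54.9 FPKM in S44. How the authors' processing divided reads between such similar copies is not given in the sources used here.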
